A study of Mus musculus with 24 samples.

Results

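The 10 genes followed here encode metallothioneins and antioxidant enzymes: Mt1, Mt2, Prdx1, Prdx5, Prdx6, Txnrd1, Gclm, Nqo1, Srxn1 and Gsr. They were chosen by name, and all 10 were found among the 23337 gene symbols of the count files. Total RNA and ribosome footprints, the stretches of mRNA covered by translating ribosomes, were sequenced from macrophages grown out of mouse bone marrow. There were 6 Apobec1 -/- cultures (KO) and 6 wild-type cultures (WT), each with 1 footprint library and 1 total RNA library, 24 libraries in all. Apobec1 encodes a cytidine deaminase that changes C to U in mRNA. Both genotypes were labelled C57BL/6J, came from littermates or age-matched mice of 6 to 12 weeks, and grew for 7 days in DMEM with serum, non-essential amino acids, an additive named BME and 20 ng/mL M-CSF, which turns marrow precursors into macrophages. No further allele or agent was named for either genotype. The cultures fall into 3 labelled batches, with KO1, WT1, WT2 and WT3 in batch 1, KO2, KO3, KO4 and WT4 in batch 2, and KO5, KO6, WT5 and WT6 in batch 3. Whether every culture had an animal of its own is not labelled, so p-values here speak of spread among cultures, which may be technical.

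Libraries held 5077478 to 12059361 counts in genes for total RNA and 29561 (WT6) to 3714912 (WT4) for footprints, and 8 of the 12 footprint libraries held under 1000000. In WT6, 3 footprint counts amount to 82.2 CPM (counts per 1000000, scaled as the other values here). That is the upper limit that a count of 0 allows there for counting error alone. Apobec1 itself gave 0 to 22 footprint counts in KO cultures and 3 to 353 in WT cultures, while its total RNA gave 4286 to 8754 counts in KO and 2072 to 5737 in WT. Whether the counted part of Apobec1 includes the altered sequence is not given, so the total RNA does not check the genotype. The 8 macrophage markers found, Emr1 (F4/80) and Csf1r among them, summed to 15146 to 31352 CPM in KO and 16668 to 48577 CPM in WT. The 4 Y-linked genes examined summed to 1 or 2 counts in each total RNA library of batch 3 and to at least 973 in each other, so the sex of the animals and batch 3 cannot be told apart. WT4 is the only WT culture of batch 2, and it stood apart in most of the genes described here, so results that rest on it are given with and without it.

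Metallothioneins are small cysteine-rich proteins that bind zinc and copper, and the metal-sensing factor MTF-1 is known to switch on their genes when free zinc rises. Most of the enzymes belong to the antioxidant program of the transcription factor NRF2, which its partner KEAP1 holds back until oxidants or electrophiles release it. Macrophages make oxidants when they engulf and kill microbes, and they carry this machinery to limit damage to themselves. Peroxiredoxins reduce peroxides, sulfiredoxin repairs over-oxidised peroxiredoxins, thioredoxin reductase and glutathione reductase use NADPH to recycle thioredoxin and glutathione, GCLM is the regulatory subunit of the enzyme that starts glutathione synthesis, and NQO1 reduces quinones. On mm10, Mt2 (chr8:94172618-94173567) and Mt1 (chr8:94178883-94180327) are neighbours, Nqo1 and Gsr also lie on chromosome 8, and the others lie on chromosomes 1 (Prdx6), 2 (Srxn1), 3 (Gclm), 4 (Prdx1), 10 (Txnrd1) and 19 (Prdx5).

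The promoters of 4 members are shown because these genes were all high in WT4 and the windows hold letters of the elements through which the 2 programs are known to act. Windows from 250 bases before to 50 bases after the annotated start came from RefSeq on GRCm38.p6, the patch release of the mm10 build named for the files, and 8 of the 10 members matched the table, all but Prdx6 and Gsr. The metal response element core was searched as TGCACNC or TGCGCNC, and the antioxidant response element core as TGACNNNGC, on both strands. In Mt1 (chr8:94178839-94179138, plus strand) and Mt2 (chr8:94172368-94172667, plus strand) capitals mark the metal response element core, found 3 times in Mt1 and 4 times in Mt2. In Gclm (chr3:122245307-122245606, plus strand) and Prdx1 (chr4:116685349-116685648, plus strand) capitals mark the antioxidant response element core, found once in each.
Mt1: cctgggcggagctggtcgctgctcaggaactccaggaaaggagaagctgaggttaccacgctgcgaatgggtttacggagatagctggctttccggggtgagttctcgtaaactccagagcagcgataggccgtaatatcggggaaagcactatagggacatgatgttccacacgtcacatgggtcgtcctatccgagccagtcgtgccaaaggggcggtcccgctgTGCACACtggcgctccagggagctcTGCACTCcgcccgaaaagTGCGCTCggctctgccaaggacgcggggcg
Mt2: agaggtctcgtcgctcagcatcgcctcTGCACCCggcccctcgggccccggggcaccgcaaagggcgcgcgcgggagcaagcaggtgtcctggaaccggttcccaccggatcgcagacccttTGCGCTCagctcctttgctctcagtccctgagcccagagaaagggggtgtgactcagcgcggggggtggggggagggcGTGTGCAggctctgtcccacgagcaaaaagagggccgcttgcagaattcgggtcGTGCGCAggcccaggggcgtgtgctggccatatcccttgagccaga
Gclm: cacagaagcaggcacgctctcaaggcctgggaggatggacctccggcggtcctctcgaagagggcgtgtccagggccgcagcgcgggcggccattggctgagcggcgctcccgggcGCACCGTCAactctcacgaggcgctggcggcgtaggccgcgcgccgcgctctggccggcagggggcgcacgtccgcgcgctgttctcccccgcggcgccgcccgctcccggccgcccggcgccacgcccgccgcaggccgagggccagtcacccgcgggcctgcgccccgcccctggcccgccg
Prdx1: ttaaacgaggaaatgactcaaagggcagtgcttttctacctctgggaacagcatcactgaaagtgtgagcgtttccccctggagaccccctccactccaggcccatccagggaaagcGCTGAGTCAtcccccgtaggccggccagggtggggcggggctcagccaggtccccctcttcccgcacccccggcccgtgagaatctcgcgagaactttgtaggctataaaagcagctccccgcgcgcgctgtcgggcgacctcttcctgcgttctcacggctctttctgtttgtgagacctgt
At least 3 copies of the metal core occurred in 1.97% of the 32851 windows of the table and at least 4 in 0.517%, while 1 or more occurred in 25.7%. Gclm also held 3 copies of the metal core, 1 of them overlapping its antioxidant core, and Srxn1 held 1. The antioxidant core occurred in 12.4% of windows, and besides Gclm and Prdx1 it was found in Mt2, Srxn1 and 1 of the 3 windows of Txnrd1. The windows of Prdx5 and Nqo1 held neither set of letters. The table's start for Mt1 lies inside the gene record, which begins at position 94178883, rather than at its first base. A match describes letters only, and no binding was measured here.

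In total RNA the metallothionein Mt1 spanned 34.3 to 93.2 CPM in KO cultures (median 63.6) and 35.0 to 135 CPM in WT cultures (median 51.5). Mt2, its neighbour on chromosome 8, was read at few counts, spanning 2.25 to 7.14 CPM in KO (median 4.48) and 2.72 to 23.0 CPM in WT (median 3.27). For both genes the genotypes overlapped, the highest value was that of WT4 and the lowest that of KO1. The peroxiredoxins gave the same picture of overlap. Prdx1, a cytosolic peroxiredoxin, had 1284 to 2615 CPM in KO (median 1799.8) and 1593 to 3194 CPM in WT (median 2536). Prdx5, found in mitochondria and peroxisomes, had 66.9 to 158 CPM in KO (median 118) and 71.9 to 297 CPM in WT (median 107). Prdx6, which uses glutathione in place of thioredoxin, had 47.2 to 92.3 CPM in KO (median 69.4) and 72.3 to 212 CPM in WT (median 85.1). WT4 was again the highest culture in all 3, and the lowest was a KO culture in each. Copies of Prdx6 elsewhere in the genome (Prdx6b and Prdx6-ps2) are annotated in RefSeq, so its counts may have been split or shared by the authors' counting.

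Txnrd1, the cytosolic thioredoxin reductase, differed from the others in that its highest culture was KO5: it spanned 201 to 375 CPM in KO (median 289.5) and 319 to 353 CPM in WT (median 336). Srxn1, the sulfiredoxin gene, spanned 123 to 191 CPM in KO (median 175) and 169.9 to 249.8 CPM in WT (median 189). Gsr, glutathione reductase, spanned 65.3 to 117 CPM in KO (median 98.0) and 99.5 to 175 CPM in WT (median 106). All 3 had their lowest value in KO2 or KO4, and the genotypes overlapped. Gclm had 30.6 to 85.6 CPM in KO (median 51.3) and 37.2 to 174 CPM in WT (median 58.5). Nqo1 had 3.65 to 13.3 CPM in KO (median 8.41) and 3.64 to 51.2 CPM in WT (median 8.43), the widest spread of the 10 genes, at 3.72 on the log2 CPM scale, against 0.90 for Txnrd1, the narrowest. WT4 was the highest culture for 9 of the 10 genes, and over all 10942 genes tested it was the highest for 14.4%.

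**Figure D1:**
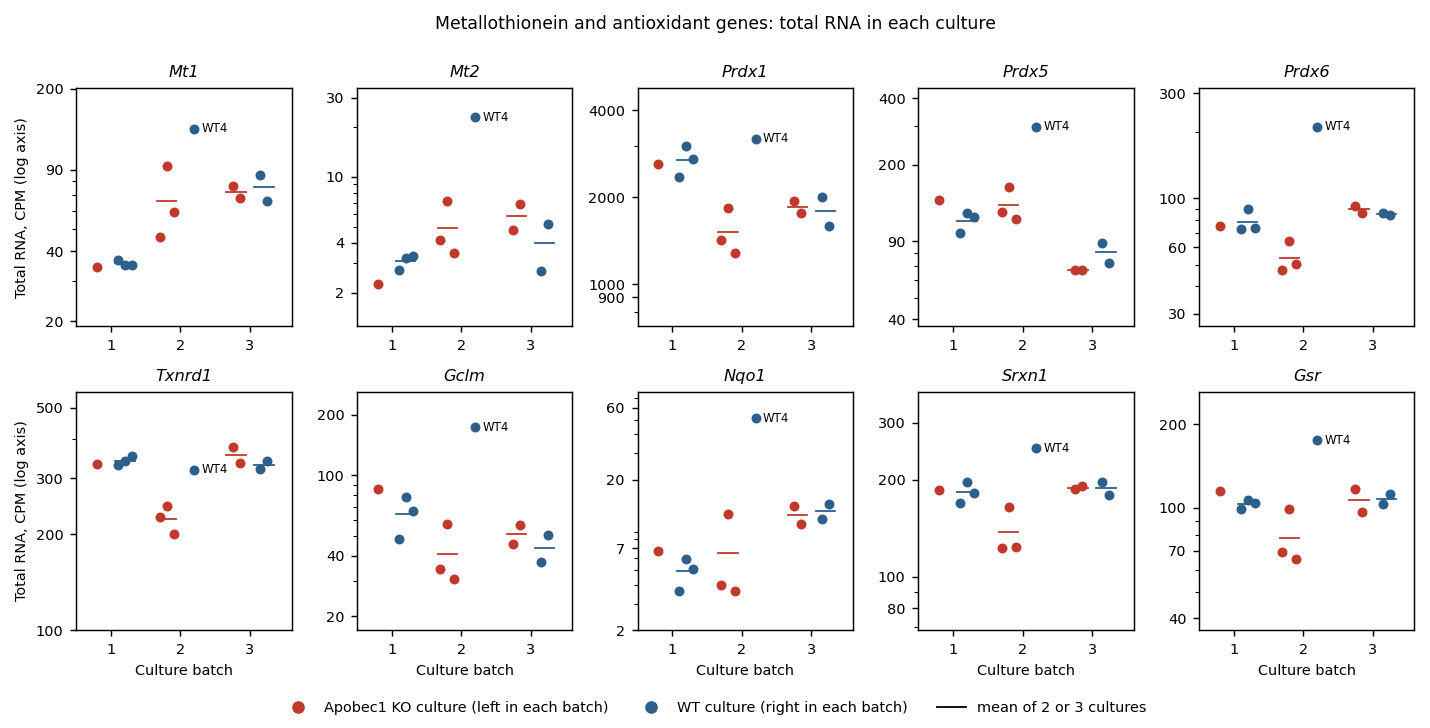
Total RNA of each gene in each culture, in CPM on a log axis, with KO cultures (red) left of WT cultures (blue) within each batch; short lines are means of 2 or 3 cultures. WT4 is labelled: it stands above the 3 KO cultures of its batch for all 10 genes and at the top of all 12 cultures for 9.

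Footprints followed the same pattern with more scatter, as the shallow libraries allow. Mt1 footprints spanned 41.7 to 149 CPM in KO (median 84.3) and 54.8 to 136 CPM in WT (median 105), and the highest culture was KO5. Mt2 footprints spanned 5.75 to 41.9 CPM in KO (median 17.1, from 3 to 26 counts) and 16.8 to 68.4 CPM in WT (median 35.7, from 2 to 231 counts). WT4 held 231 of the 300 Mt2 counts of the WT cultures, and the ranges of the genotypes overlapped. Prdx1 footprints reached 8052 CPM in WT4, with 2770.1 to 4936 CPM in the KO cultures and 3067 to 4199 CPM in the other WT cultures. Prdx5 footprints reached 489 CPM in WT4, with 146 to 296 CPM in KO and 157 to 181 CPM in the other WT cultures. In Prdx6 the value of WT4 was 179.8 CPM, with 39.5 to 74.6 CPM in KO and 27.4 to 82.4 CPM in the other WT cultures. The other WT cultures lay within the KO range for Prdx1 and Prdx5 and across it for Prdx6.

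Gclm footprints stood at 70.3 to 131 CPM in KO, 75.1 to 102 CPM in the other WT cultures and 357 CPM in WT4. Gsr footprints spanned 62.1 to 135 CPM in KO and 0 (WT6) to 143 CPM (WT4) in WT. Txnrd1 footprints spanned 167 to 401 CPM in KO and 238 to 314 CPM in WT. The lowest Txnrd1 values in each genotype were those of batch 2. Srxn1 footprints spanned 7.47 to 51.3 CPM in KO and 21.9 to 164 CPM in WT, and the highest of them, WT6, rested on 6 counts. Nqo1 footprints were too few for the count filter, at 92 counts over the KO cultures and 286 over the WT cultures, 277 of them in WT4. Outside WT4 the Nqo1 footprint values were few: the KO cultures had 6.16 to 27.8 CPM (1 to 31 counts each) and the other 5 WT cultures 0 to 4.69 CPM (0 to 6 counts each). The 0 of WT6 allows up to 82.2 CPM, so no order of the genotypes is read from these counts. In total RNA the same cultures overlapped, at 3.65 to 13.3 CPM in KO and 3.64 to 13.7 CPM in the 5 WT cultures.

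**Figure D2:**
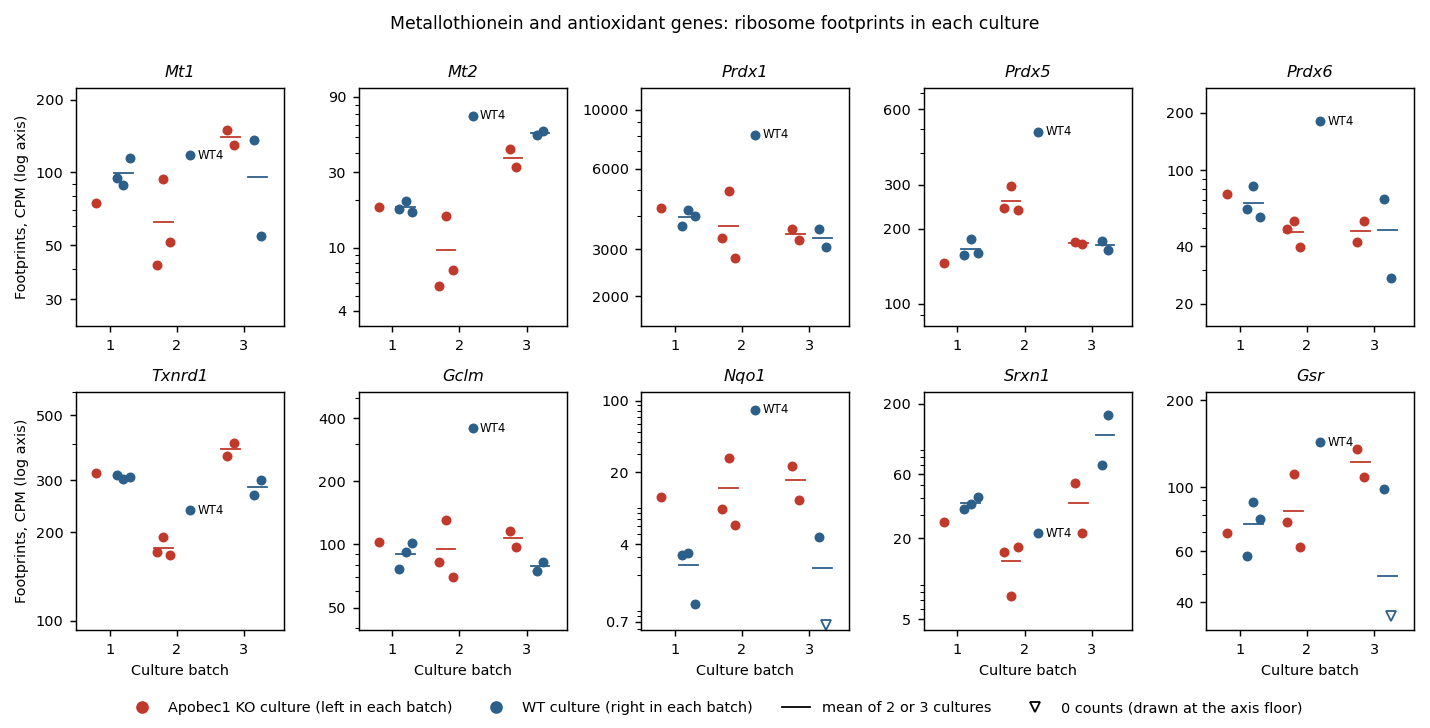
Ribosome footprints of each gene in each culture, in CPM on a log axis, drawn as for total RNA; open triangles are cultures with 0 counts. WT4 is the highest culture for Mt2, Prdx1, Prdx5, Prdx6, Gclm, Nqo1 and Gsr, and batch 3 values scatter at the depth of their libraries.

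Whether loss of Apobec1 changed these genes was tested with edgeR's quasi-likelihood F-test on counts, with batch in the model and Benjamini-Hochberg adjustment over all genes. In total RNA 0 of 10 genes passed an adjusted p of 0.05 (adjusted p = 0.859 for each), 0 had an unadjusted p under 0.05, and DESeq2 and limma voom called 0. Over all genes 2 of 10942 passed, or 0.0183%, and 4.68% had an unadjusted edgeR p under 0.05. All 10 estimates were below 0, with a median log2 difference of -0.38, against -0.00 over all genes tested. The estimates nearest 0 were those of Txnrd1 (-0.13, SE 0.10) and Srxn1 (-0.26, SE 0.14), and the farthest were those of Nqo1 (-1.02, SE 0.55) and Mt2 (-0.80, SE 0.41). The 10 estimates share the same 12 cultures, and their common direction rested on batch 2, where WT4 is the only WT culture. Leaving WT4 out also removes the batch 2 KO cultures from the comparison, so it cannot tell a high WT4 from low KO cultures. Without WT4, 8 of the 10 moved above 0, among them Gclm (0.31, SE 0.21), Mt2 (0.19, SE 0.32) and Nqo1 (0.14, SE 0.32). Mt1 (-0.06) and Prdx5 (-0.00) lay near 0.

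In footprints 0 of 9 genes tested passed, against 6 of 7208 over all genes, or 0.0832%, and DESeq2 and limma voom again called 0 (4 with an unadjusted p under 0.05 in each). All 9 estimates were below 0 (median -0.58, against 0.01 over all genes), and 5 had an unadjusted p under 0.05, as did 8.52% of all genes. Mt2 was at log2 -2.16 (SE 0.46, adjusted p = 0.165), Prdx6 at -1.11 (SE 0.32, adjusted p = 0.325) and Prdx5 at -0.49 (SE 0.15, adjusted p = 0.273). Mt1 (-0.58, SE 0.23) and Srxn1 (-0.62, SE 0.25) had adjusted p = 0.494 and 0.468. Without WT4, Mt2 was at -0.17 (SE 0.43), and Prdx1, Prdx6, Txnrd1, Gclm and Gsr moved above 0, with Gclm at 0.30 (SE 0.25). Srxn1 was the exception, at -0.71 (SE 0.36, adjusted p = 0.950) without WT4. Leaving out KO1, the only KO culture of batch 1, brought 3 genes past the threshold, Mt2, Prdx5 and Prdx6, beside 269 of 7786 genes over all. With all 12 cultures, 2 markers of granulocytes passed the test in footprints and were lower in KO. They were S100a8 (-1.28, SE 0.23, adjusted p = 0.00838) and Mmp9 (-1.50, SE 0.31, adjusted p = 0.0335). Without WT4, 1 of 6848 genes passed over all genes, so these 2 calls did not both hold there. The part of these markers in the estimates above was not tested.

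The footprint to RNA ratio of a gene, here footprint CPM over total RNA CPM of the same culture, was tested as the interaction of genotype with library kind. Of the 9 genes tested 0 passed with edgeR, 0 had an unadjusted p under 0.05, and DESeq2 and limma voom called 0. Over all genes 1 of 7203 passed, or 0.0139%, and 2.37% had an unadjusted edgeR p under 0.05. Mt2 had the estimate farthest from 0 (-1.36, SE 0.73), and Prdx1 (0.01, SE 0.29) and Gsr (-0.03, SE 0.36) the nearest. Without WT4 the Mt2 estimate was -0.36 (SE 0.55). The errors were widest for Mt2, Gclm (-0.48, SE 0.63) and Prdx6 (-0.51, SE 0.52).

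**Figure D3:**
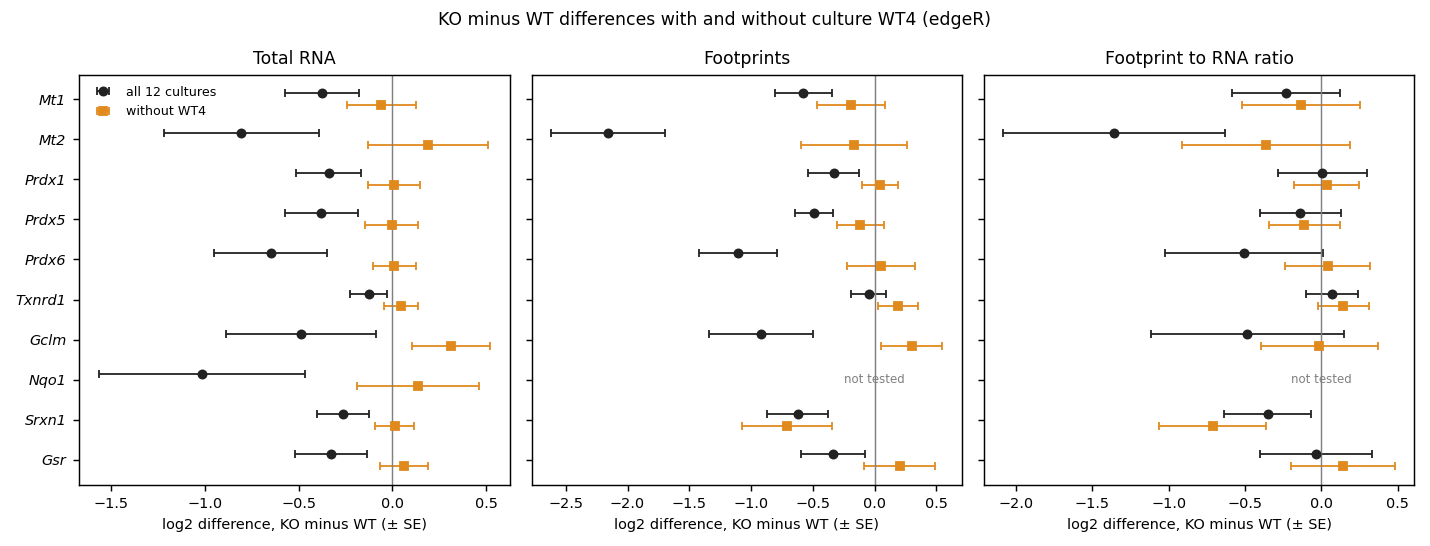
KO minus WT log2 differences (points) with standard errors (bars) from edgeR, in total RNA, footprints and the footprint to RNA ratio, with all 12 cultures (black) and without WT4 (orange). Without WT4 the total RNA estimates lie between -0.06 and 0.31, and the Mt2 footprint estimate is -0.17 in place of -2.16; Nqo1 was not tested in footprints or the ratio.

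The KO minus WT difference itself varied between batches for some of the genes. Batch 2 held 1 WT culture and batch 1 held 1 KO culture, so a batch and its single culture cannot be told apart there. In total RNA the genotype by batch test passed for 4 of 10 genes, Prdx6 (adjusted p = 0.00313), Gclm (0.0354), Prdx5 (0.0361) and Nqo1 (0.0479), against 0.987% of all genes, and all 10 had an unadjusted p under 0.05, as did 12.8% of all genes. Within batch 2 the Nqo1 difference of mean log2 CPM was -3.13, within batch 1 it was 0.47 and within batch 3 it was -0.08. Gclm gave -2.14 within batch 2, 0.44 within batch 1 and 0.23 within batch 3, and Prdx6 gave -1.99, -0.06 and 0.06 in the same order. For these 3 genes batch 2 was the batch with a difference of more than 1 on the log2 scale. Prdx5 gave -1.19 within batch 2, 0.31 within batch 1 and -0.25 within batch 3. All 10 genes were lower in KO within batch 2, from -0.51 for Txnrd1 to -3.13 for Nqo1, while the differences within batches 1 and 3 lay between -0.41 and 0.57, both of those being Mt2. In footprints the test passed for 4 of 9 genes, Gclm (adjusted p = 4.74e-05), Prdx6 (5.13e-04), Mt2 (0.00181) and Prdx1 (0.0104), against 2.01% of all genes. In total RNA DESeq2 and limma voom each called 8 of 10, all but Mt1 and Txnrd1, against 3.38% and 4.03% of all genes. In footprints DESeq2 called 3 of 9, without Prdx1 (adjusted p = 0.0833), limma voom called 5, with Gsr added (0.0387), and without the count filter edgeR called 5 of 10, with Nqo1 added (1.20e-06). Mt2 footprints gave -2.75 within batch 2, 0.02 within batch 1 and -0.51 within batch 3.

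These calls rested on batch 2, whose only WT culture is WT4. Without it the test covers batches 1 and 3 only, and 0 of 10 genes passed in total RNA (adjusted p = 1.00 for each) and 0 of 9 in footprints (adjusted p from 0.934 to 0.995), with 1 gene in total RNA and 0 in footprints at an unadjusted edgeR p under 0.05. Over all genes 0 passed as well, and DESeq2 and limma voom were not run without WT4. Leaving out other single cultures also cost calls. In total RNA Prdx6 was the only gene past the threshold without any 1 of KO2, KO4, KO5, KO6 or WT3. Without WT1 or WT2 it was joined by Gclm, without WT5 by Prdx5, without KO1 by Mt2 and Gclm, and without WT6 by Mt2, Prdx5 and Gsr. Prdx6 thus lost its call without WT4 alone, while the adjusted p of Prdx5, Gclm and Nqo1 reached 0.115, 0.0885 and 0.106 without cultures other than WT4. Without KO3, the batch 2 KO culture nearest to WT4, 9 of 10 genes passed in total RNA and 7 of 9 in footprints, while the shares over all genes were 4.37% and 5.46%. In footprints Gclm kept its call in every omission but that of WT4, and Mt2, Prdx1 and Prdx6 also lost theirs without KO1 (adjusted p = 0.0856, 0.0524 and 0.358).

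Within batch 2, WT4 was higher than each of KO2, KO3 and KO4 for all 10 genes in total RNA, which held for 33.4% of all genes tested, and for all 9 genes tested in footprints, which held for 30.6%. Nqo1 total RNA was 4.01, 11.8 and 3.65 CPM in KO2, KO3 and KO4, against 51.2 CPM in WT4, a WT4 over mean KO ratio of 7.87. Mt2 was 4.15, 7.14 and 3.45 CPM in those KO cultures, against 23.0 CPM in WT4 (ratio 4.69). Gclm was 34.5, 57.1 and 30.6 CPM in KO, against 174 CPM in WT4 (ratio 4.28). KO3 was the KO culture nearest to WT4 in each of these 3 genes. Prdx6 was 47.2, 63.9 and 50.1 CPM in KO, against 212 CPM in WT4 (ratio 3.95). The other ratios were 2.26 for Prdx5, 2.25 for Gsr, 2.11 for Prdx1, 2.04 for Mt1, 1.82 for Srxn1 and 1.42 for Txnrd1. Txnrd1 was the exception to the height of WT4: its 319 CPM there lay just under the 322 to 353 CPM of the other WT cultures, and the batch 2 KO cultures, at 201 to 245 CPM, were the lowest of the 12. Footprints gave ratios of similar size. In footprints the WT4 over mean KO ratio was 7.07 for Mt2, 3.77 for both Gclm and Prdx6 and 1.89 for Prdx5.

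The level of related genes in total RNA was set beside these values. Of 22 other reported NRF2 targets, 19 were higher in WT4 than in every batch 2 KO culture, with a median WT4 over mean KO ratio of 1.55, and of 13 other glutathione genes tested 11 were, with a median of 1.69. The lists share members, such as Slc7a11 and Gstm1. The largest ratio in both lists was that of Slc7a11, the cystine importer that feeds glutathione synthesis, at 17.8 CPM on average in the 3 KO cultures, against 157 CPM in WT4, a ratio of 8.86. Hmox1, heme oxygenase, had a ratio of 2.33, and Chac1, which breaks glutathione down, had 4.83 on 12 counts in WT4. These genes were picked for their ratios. Among the regulators of the pathway 3 of 9 were higher in WT4 than in every KO culture of the batch (median ratio 1.05), with Nfe2l2, the NRF2 gene, at 0.949 and Keap1 at 1.03. Among 20 zinc and copper genes 8 were higher in WT4 (median 1.07), with the MTF-1 gene Mtf1 at 1.14, and among 17 other peroxiredoxin, thioredoxin and glutaredoxin genes 8 were (median 1.17). All 4 superoxide dismutase and catalase genes were higher in WT4 (median 1.36), such as Cat at 1.69, and 2 of 7 glucocorticoid-induced genes were (median 0.937). The median over all genes tested was 1.00, and 33.4% of them were higher in WT4 than in every KO culture of the batch. In footprints 16 of 20 other NRF2 targets were, 6 of 9 glutathione genes (median 1.65), 6 of 15 other peroxiredoxin, thioredoxin and glutaredoxin genes (0.998) and 1 of 4 superoxide dismutase and catalase genes (1.22), against 30.6% of all genes.

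**Figure D4:**
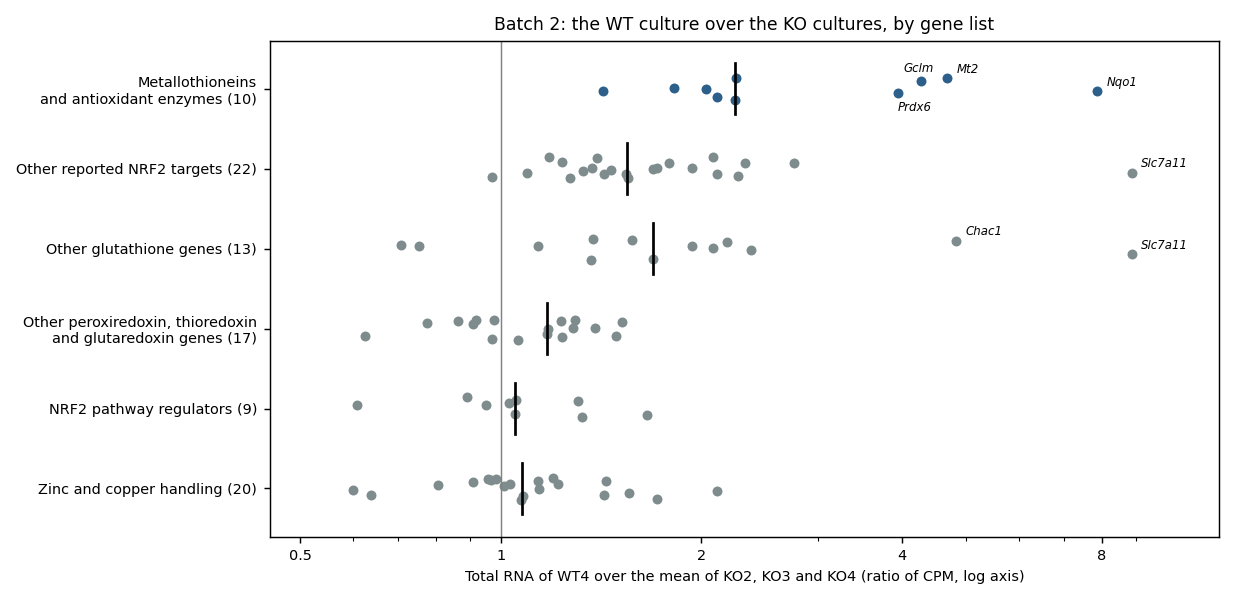
Total RNA of WT4 divided by the mean of KO2, KO3 and KO4 (ratio of CPM, log axis), 1 point per gene, grouped by gene list with the number of genes in brackets; black lines are medians and the grey line marks equal levels. The 10 genes lie between 1.42 and 7.87 with a median of 2.24, the other NRF2 targets and glutathione genes have medians of 1.55 and 1.69, and the NRF2 regulators 1.05.

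Markers of other cells also differed between WT4 and its batch. Neutrophil and granulocyte precursor markers summed to 165 to 218 CPM in the batch 2 KO cultures and to 619 CPM in WT4. The largest parts of the WT4 sum were Mmp8 (227 CPM) and Csf3r (118 CPM). Of the 12 tested, 11 were higher in WT4 than in each of those KO cultures, against 33.4% of all genes tested. Mmp8 and Tfrc also passed the genotype by batch test in total RNA (adjusted p = 0.0177 each), as did 0.987% of all genes. Neither passed it without WT4. The macrophage markers summed to 27266 to 31352 CPM in those KO cultures and to 48577 CPM in WT4. Of these markers 5 of 8 were higher in WT4 than in each of those KO cultures, against the same 33.4% of all genes. Lyz2 alone gave 34783 CPM in WT4, against 16286 to 21821 CPM in those KO cultures. Cd68 was lower in WT4, at 303 CPM against 388 to 479 CPM. In batch 3 the neutrophil markers summed to 456 and 539 CPM in KO and 547 and 607 CPM in WT, but from other genes than in WT4. Mmp8 gave 227 CPM in WT4 and 17.9 to 28.9 CPM in batch 3. S100a9 gave 65.8 CPM in WT4 and 156 to 220 CPM in batch 3. Mt2, Prdx6, Gclm and Nqo1 stayed at or below 6.89, 92.3, 56.7 and 13.7 CPM in batch 3. Among erythroid markers, Hba-a1, Hba-a2 and Hbb-b2 were at 0 in all libraries, and only Tfrc, which other cells also use, was abundant enough to test. Stromal, dendritic and lymphocyte markers each summed to at most 10.6 CPM in any culture, and mast cell and basophil markers to 3.04 to 69.8 CPM in KO and 2.82 to 53.3 CPM in WT, lowest in WT4. The part of granulocyte RNA in the level of these genes in WT4 was not tested, and in bulk RNA fewer cells of a type and less RNA per cell cannot be told apart.

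Some related genes shared the genotype by batch call. In total RNA 2 of 22 other NRF2 targets passed, Hmox1 (adjusted p = 0.0119) and Cbr3 (0.0361), against 0.987% of all genes. So did Sgk1 of the 7 glucocorticoid-induced genes (0.0479). The smallest adjusted p was 0.105 among the regulators (Nfe2l1) and 0.0723 among the zinc and copper genes (Slc39a14, a zinc importer). In footprints 5 of 20 other NRF2 targets passed, Gstm1, Hmox1, Cat, Idh1 and Esd, against 2.01% of all genes. So did 2 of 9 other glutathione genes, Mgst1 and Gstm1. Without WT4 no gene over all genes passed this test in either kind of library, so none of these calls held there. For the KO minus WT difference the related lists held no called gene. In total RNA 1 of 22 other NRF2 targets and 3 of 13 other glutathione genes had an unadjusted edgeR p under 0.05. Over all genes 4.68% did. In footprints 6 of 20 and 4 of 9 did, against 8.52% of all genes. The other tools and, for KO minus WT, the fits without WT4 were not summarised over these lists. The smallest p in total RNA was that of Gstp1, a glutathione transferase, at log2 -0.65 (SE 0.21, adjusted p = 0.859), and in footprints that of Ugdh, at -0.62 (SE 0.20, adjusted p = 0.303).

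Some of the genes differed between batches, but in total RNA a smaller share of them than of all genes passed with every culture kept. The sex of the animals and batch 3 cannot be told apart, and the cause of these differences was not tested. In total RNA 4 of 10 passed the test for any batch difference, against 61.6% of all genes: Mt1 (adjusted p = 0.00110), Prdx5 (0.00208), Txnrd1 (0.00958) and Mt2 (0.0129). Mt1 was higher in batch 2 than in batch 1, at 46.2 to 135 CPM in batch 2 against 34.3 to 36.7 CPM in batch 1 (log2 difference 1.38, SE 0.24, adjusted p = 0.00261). It was also higher in batch 3 than in batch 1, at 66.3 to 84.9 CPM in batch 3 (1.17, SE 0.24, adjusted p = 0.00177). The 4 batch 1 cultures of both genotypes lay below all 8 others. Mt2 was higher in batch 2, at 3.45 to 23.0 CPM, than in batch 1, at 2.25 to 3.32 CPM (1.97, SE 0.49, adjusted p = 0.0145). Its batch call was lost without WT4 (adjusted p = 0.160). Prdx5 was lower in batch 3, at 66.9 to 88.6 CPM, against 114 to 297 CPM in batch 2 (-1.28, SE 0.23, adjusted p = 9.52e-04) and 98.3 to 138 CPM in batch 1 (-0.62, SE 0.23, adjusted p = 0.0483). Txnrd1 was lower in batch 2 than in batch 1 (-0.40, SE 0.12, adjusted p = 0.0321) and higher in batch 3 than in batch 2 (0.45, SE 0.12, adjusted p = 0.00585). The shares of all genes called were 23.5% for batch 2 minus batch 1, 45.3% for batch 3 minus batch 1 and 49.2% for batch 3 minus batch 2. Called here were 3 of 10 for batch 2 minus batch 1 and 2 of 10 for each of the other contrasts. Without WT4, 9 of the 10 genes passed the batch test in total RNA, all but Mt2, against 57.8% of all genes.

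In footprints 3 of 9 genes passed the batch test, against 33.4% of all genes. Prdx5 footprints were higher in batch 2, at 238 to 489 CPM, than in batch 1, at 146 to 181 CPM (1.19, SE 0.17, adjusted p = 1.77e-05), and lower in batch 3, at 164 to 178 CPM, than in batch 2 (-0.90, SE 0.20, adjusted p = 0.00103). Txnrd1 footprints were lower in batch 2, at 167 to 238 CPM, than in batch 1, at 303 to 318 CPM (-0.68, SE 0.16, adjusted p = 0.00350), and were higher in batch 3, at 268 to 401 CPM, than in batch 2 (0.79, SE 0.17, adjusted p = 0.00105). For Txnrd1 the batch 2 cultures of both genotypes stood below all 8 others, as in total RNA. Srxn1 footprints were higher in batch 3 than in batch 2 (1.75, SE 0.36, adjusted p = 4.42e-04) and than in batch 1 (1.04, SE 0.36, adjusted p = 0.0341), at 21.7 to 164 CPM in batch 3, 7.47 to 21.9 CPM in batch 2 and 26.5 to 40.8 CPM in batch 1. The batch 3 values rested on 2 to 15 counts each. Without WT4 5 of 9 genes passed the batch test in footprints, with Mt1 and Mt2 added, against 30.5% of all genes, and without KO1 6 did, with Mt2, Prdx6 and Gclm added, against 31.4%. The shares of all genes called were 15.4% for batch 2 minus batch 1, 20.8% for batch 3 minus batch 1 and 22.5% for batch 3 minus batch 2.

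Ratios of footprints to RNA set the 10 genes apart from each other. Mt2 had a median of 5.59 over the 12 cultures, above 99.7% of the 7203 genes tested, while Srxn1 had 0.164, below all but 0.653% of them. Prdx5 (1.92), Gclm (1.87), Prdx1 (1.84) and Mt1 (1.76) lay between percentiles 87.3 and 91.2, and Gsr (0.893), Txnrd1 (0.878) and Prdx6 (0.833) between percentiles 37.5 and 42.4. Nqo1, under the count filter in footprints, had 1.34, and the median gene had 1.00. The files count footprints over coding sequence and do not state the region for total RNA, so a place in this order also carries the share of each transcript that is coding, and no transcript length was used here.

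The ratio of Mt1 was lower in batch 2, at 0.869 to 1.01, than in batch 1, at 2.18 to 3.30 (log2 difference -1.48, SE 0.41, adjusted p = 0.0179), and the 2 batches did not overlap in either genotype. Its total RNA was higher in batch 2 while its footprints were at 41.7 to 118 CPM in batch 2 and 74.6 to 115 CPM in batch 1. The Srxn1 ratio was higher in batch 3, at 0.114 to 0.916, than in batch 2, at 0.0453 to 0.140 (1.59, SE 0.39, adjusted p = 0.0108). These 2 of 9 genes passed the test for any batch difference (adjusted p = 0.0349 for Mt1 and 0.0143 for Srxn1), against 18.7% of all genes, and by contrast 16.3% of genes passed for batch 2 minus batch 1, 1.15% for batch 3 minus batch 1 and 9.59% for batch 3 minus batch 2. With the culture as a replicate block over its 2 libraries 6 of 9 passed, with Mt2, Prdx1, Prdx5 and Gclm added, against 34.3% of all genes. With limma voom neither the Mt1 nor the Srxn1 call held (adjusted p = 0.108 and 0.0921), and 0 of 9 genes passed, against 3 at an unadjusted p under 0.05 and 15.3% of all genes called. Mt2 ratios were 1.38 to 2.97 in batch 2, against 5.04 to 8.10 in batch 1 and 4.72 to 19.0 in batch 3, and Prdx1 ratios were 2.16 to 2.68 in batch 2, against 1.40 to 1.64 in batch 1. The Mt1 call was lost without any of KO1, KO5, KO6, WT1, WT2, WT3, WT4 or WT5 (adjusted p from 0.0566 to 0.100) and that of Srxn1 without KO5 or WT4 (0.0615 and 0.0564).

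**Figure D5:**
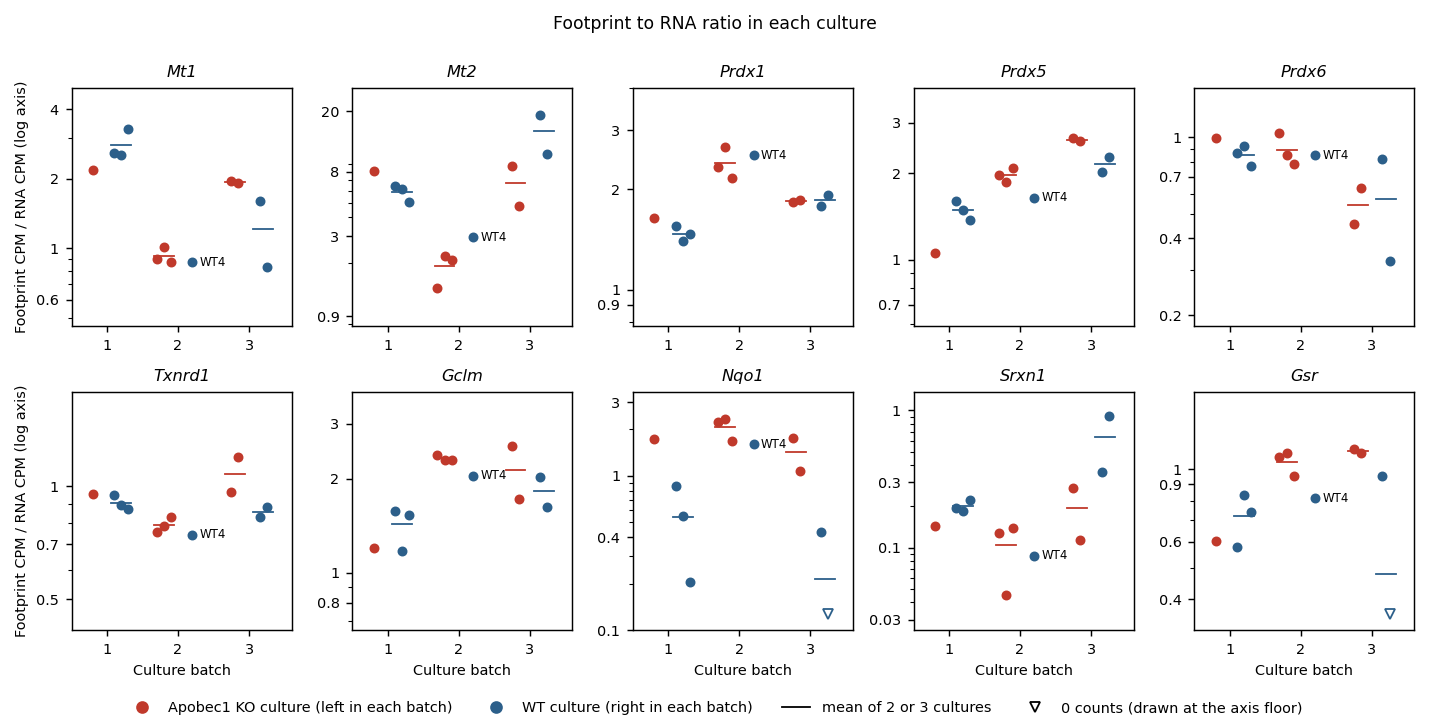
Footprint CPM over total RNA CPM of each gene in each culture, on a log axis, drawn as for the levels; open triangles are cultures with 0 footprint counts. Ratios of batch 2 lie below those of batch 1 for Mt1, Mt2, Txnrd1 and Srxn1, and above them for Prdx1, Prdx5 and Gclm. Of these only Mt1 passed the batch 2 minus batch 1 test, and how often batches part in this way over all genes was not counted. Batch 1 holds 1 KO culture and batch 2 holds 1 WT culture.

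Likeness of pattern was measured for Mt1, Mt2 and Prdx6 as the root mean square difference of log2 CPM, centred on each gene's mean, over the 12 total RNA libraries. The genes nearest to Mt1 were Trim46 (0.18), Treml2 (0.22) and Serpinb8 (0.23), and Mt2 ranked 1130 among 10941. The nearest to Mt2 were Pdpn (0.35), Chchd10 (0.38) and Sema4b (0.39), and Mt1 ranked 42. Prdx6 lay nearest to 6330416G13Rik (0.19), Atf5 (0.21) and Tfrc (0.23), with Gsr ranked 5 and Srxn1 ranked 16. The 2 metallothioneins were thus less alike in these cultures (0.52) than Prdx6 and Gsr (0.24) or Prdx6 and Srxn1 (0.29). Low counts widen these distances, since Mt2 had 17 to 139 counts per library.

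The authors' deposited table over all genes lists log2 fold changes whose direction its header does not state, and none of the 10 genes had an adjusted p under 0.05 there. In the authors' deposited table Srxn1 had the smallest p-value of the 10 (log2 0.69, p = 0.0643, adjusted p = 1), followed by Mt1 (0.47, p = 0.241). Apobec1 was the only gene under an adjusted p of 0.05 in the authors' deposited table, at log2 4.88.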

How the data were processed

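Gene-level counts of reads were deposited by the authors for 12 total RNA and 12 ribosome footprint (RPF) libraries, 1 of each per culture. Per the file headers and names, footprint counts cover coding sequence and list only genes with counts, an absent gene being taken as 0. Total RNA counts list all genes and are named strict, and which part of each gene was counted, and on which strand, is not stated in any source used here. The submitters' processing notes name the mm10 build and, without saying what each did, DESeq, DESeq2, HTSeq, TopHat2 2.1.0, Bowtie 1.1.2, Cufflinks 2.2.1 and Trim Galore. The authors' deposited tables of one comparison hold, per the file headers, log2 fold changes with standard errors, a test score, p-values and a mean signal per gene (normalized by DESeq2), and do not state which genotype is on top.

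The 5 summary lines of each file were left out. Reads not mapped uniquely were 27.8% to 51.2% of those listed for total RNA and 45.6% to 80.1% for footprints. Counts were scaled by TMM to counts per 1000000 (CPM), separately for each kind of library. Genes were kept by filterByExpr with a minimum count of 10 and tested with edgeR 4.0.16 (robust quasi-likelihood F-test, R 4.3.3) with genotype and batch as terms, and p-values were adjusted by Benjamini-Hochberg over all genes kept, with a threshold of 0.05. The footprint to RNA ratio was tested as an interaction over all 24 libraries, and the genotype by batch interaction in each kind of library. Differences are KO minus WT or later minus earlier batch, on the log2 scale. Each library's depth sets its precision, and floors of 3 counts cover counting error only. Alternatives were no count filter, other scalings, limma 3.58.1 voom (sample weights), DESeq2 1.42.0, no batch term, a replicate block, and leaving out single cultures, batches or RPF libraries under 1000000 counts. The steps were tested on simulated data. No libraries of a group agreed within sampling noise (lowest chi-square per degree of freedom 1.31). Footprint and total RNA libraries of one culture share a title number in the labels and were treated as paired in the block fit, and their deviations from group means correlated at 0.00548 to 0.559, over 0.1 in 7 of 12.

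The 10 genes, the related gene lists and the tests were chosen with earlier results of these data known. All 10 genes are named in every comparison, and of each list at most 5 called genes or, where none passed, at most 2 with the smallest p, with exceptions stated where they occur. For Mt1, Mt2 and Prdx6 the 3 genes nearest in pattern are named.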

Additional observations from a re-analysis of the deposited data

Results flagged for a closer look

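Of 60 groups of 6 cultures examined (each gene in total RNA, footprints and their ratio, by genotype), 16 held a culture far from the other 5 by Dixon's criterion, where chance gives about 1 in 20, and 12 of the 16 were WT4. The genes share cultures, so these are not independent. In total RNA WT4 stood apart from the other WT cultures for Nqo1 at 51.2 CPM, Mt2 at 23.0 CPM, Gclm at 174 CPM and Prdx6 at 212 CPM. It also did for Prdx5 at 297 CPM, Srxn1 at 249.8 CPM and Gsr at 175 CPM. In footprints it stood apart for Prdx1 at 8052 CPM, Prdx5 at 489 CPM, Prdx6 at 179.8 CPM, Gclm at 357 CPM and Nqo1 at 82.1 CPM.

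WT6, the shallowest footprint library, stood apart among WT cultures for Srxn1 footprints at 164 CPM (6 counts), for the Srxn1 ratio at 0.916 and for the Prdx6 ratio at 0.325 (1 count). KO1 stood apart among KO cultures for the Gsr ratio at 0.603.

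The KO minus WT difference varied between batches past the threshold (edgeR, adjusted over all genes) in total RNA for Prdx6 (adjusted p = 0.00313), Gclm (0.0354), Prdx5 (0.0361) and Nqo1 (0.0479). In footprints it did for Gclm (adjusted p = 4.74e-05), Prdx6 (5.13e-04), Mt2 (0.00181) and Prdx1 (0.0104). Batch 2 holds 3 KO cultures and 1 WT culture, and without that culture 0 of these genes passed (adjusted p = 1.00 in total RNA and 0.934 to 0.995 in footprints), so batch 2 and this culture cannot be told apart.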

How the results depend on the processing

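The count of genes called for KO minus WT was 0 in total RNA and in the ratio under every setting run. In footprints it was 2 without the count filter (Mt2 and Prdx6), 2 without batch 1, 9 without RPF libraries under 1000000 counts (4 libraries with WT4 as the only WT library of batch 2, 1 residual degree of freedom, 14.5% of all genes called) and 0 to 3 over single cultures left out. The matching shares of all genes were 1.26% without the count filter, 2.75% without batch 1 and 0.0146% to 3.45% over single cultures left out. For any batch difference the counts were 4 to 9 over single cultures left out in total RNA, against 52.8% to 60.6% of all genes. In footprints they were 7 without the filter (22.9% of all genes), 5 with limma voom (29.7%) and 3 to 6 over cultures left out (25.3% to 34.8%). Leaving out shallow libraries kept WT1 alone in batch 1, so its count is not given. In the ratio the batch counts were 1 without the filter (9.89% of all genes), 0 with limma voom (15.3%) and 6 with the replicate block (34.3%). Over cultures left out they were 0 to 2 (9.12% to 19.1%). Genotype by batch in total RNA called 9 without the filter (4.34% of all genes), 8 with DESeq2 (3.38%) and 8 with limma voom (4.03%). Over cultures left out it called 0 to 9 in total RNA (0% to 4.37%) and 0 to 7 in footprints (0% to 5.46%). The last was not run without shallow libraries. The Mt2 batch call in total RNA was lost without WT4 (adjusted p = 0.160). The cause of these shifts was not tested.

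Without batch 2 the total RNA differences turned to 0.19 for Mt2, 0.0066 for Prdx1, 0.011 for Prdx6, 0.045 for Txnrd1, 0.31 for Gclm, 0.13 for Nqo1, 0.012 for Srxn1 and 0.062 for Gsr. The footprint differences turned to 0.034 for Prdx1, 0.046 for Prdx6, 0.18 for Txnrd1, 0.29 for Gclm and 0.20 for Gsr, and that of Txnrd1 also to 0.012 with limma voom and 0.00038 with the replicate block. Over single cultures left out the total RNA differences spanned -1.11 to 0.19 for Mt2, -0.47 to 0.0065 for Prdx1, -0.90 to 0.010 for Prdx6, -0.18 to 0.045 for Txnrd1, -0.90 to 0.31 for Gclm, -1.49 to 0.14 for Nqo1, -0.38 to 0.012 for Srxn1 and -0.54 to 0.061 for Gsr. Footprint differences spanned -0.55 to 0.043 for Prdx1, -1.75 to 0.051 for Prdx6, -0.14 to 0.19 for Txnrd1, -1.51 to 0.30 for Gclm and -0.53 to 0.20 for Gsr. Each upper end is the value without WT4.

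Ratio differences turned to -0.0015 for Prdx1 without the filter, 0.12 for Gsr with DESeq2, -0.22 for Prdx1 and -0.014 for Txnrd1 with limma voom, and 0.15 for Prdx5 and 0.30 for Gsr with no batch term. With the replicate block they were 0.0034 for Mt1, 0.050 for Prdx5, 0.075 for Prdx6, 0.040 for Gclm and 0.25 for Gsr. Without batch 1 they were -0.077 for Prdx1, 0.022 for Prdx5 and 0.052 for Gsr, and without batch 2 0.040 for Prdx6 and 0.14 for Gsr. Without shallow libraries they were 0.021 for Mt1, -0.18 for Prdx1, 0.29 for Prdx5, 0.10 for Prdx6, 0.18 for Gclm, 0.61 for Srxn1 and 0.32 for Gsr. Over cultures left out they spanned -0.086 to 0.037 for Prdx1, -0.85 to 0.041 for Prdx6 and -0.13 to 0.14 for Gsr.

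Correlation of deviations between KO and WT cultures with the same number was over 0.1 in 1 of 6 pairs in both kinds of library. The batch and genotype terms make deviations within a batch offset each other, so these correlations cannot decide whether the numbers pair cultures. KO2 and WT2, and KO3 and WT3, were also in different batches. The replicate block changed no other count of calls. Depth limited the footprints of Nqo1, Mt2 and Srxn1 most, and batch 3 libraries could not show differences of a few counts.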
